A study of Mus musculus with 1 sample.

Results

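Complement and coagulation factors are the plasma and surface proteins of 2 proteolytic cascades, and 44 of their genes are described here in 1 sample of parental RAW264.7 cells. The members were taken by gene symbol from the array's annotation, with no cut on their signals. The list itself was chosen with earlier results of these data known. Of the 44, 42 had a named probe, out of 19321 genes named on the array, and Fga and F5 had 2 probes each, which makes 44 probes. Cfd, the protease factor D, and C3, the protein on which all complement pathways converge, had no named probe and are not analysed here.

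RAW264.7 is a mouse line that grows and behaves like a macrophage in culture. The sample is the parental line, the starting line before mutagenesis, grown in RPMI-1640 medium with calf serum. The study's design compares it with lines made by ENU mutagenesis and sorted for lost uptake of peroxiredoxin, but arrays of those lines were not analysed here. The data are therefore 1 one-colour array. With no replicate the spread between samples is unknown, no test was made, and the number of arrays sets the precision.

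Complement marks microbes and dead cells for uptake, and coagulation turns soluble fibrinogen into a fibrin clot that plasmin later removes. Hepatocytes secrete most of the circulating factors of both cascades. Macrophages are a known source of some of them, such as C1q and properdin, and carry receptors for their products. The members were accordingly split by the textbook main source of each product, with further classes for genes that both sources make and for genes known mainly from other cells, such as endothelium.

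Each signal below is the median pixel intensity of a spot, in arbitrary units, with no background subtracted. A gene takes its highest probe and was counted over the blank limit where this exceeded 22.98, the mean plus 2 SD of the trimmed blank spots. A higher limit of 55.8, called the receptor limit, was set at the 95th percentile of 1221 probes for receptors of smell and taste, most of which have no known use in a macrophage. Of these receptor genes 37.3% also passed the blank limit, so passing it alone is a weak sign of a transcript. Probes differ in how well they bind, so a low reading does not show that a transcript is scarce, and members are placed against the limits and not ranked against each other.

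Most measured members lay under the receptor limit in the parental cells, and 7 stood over both limits. These were properdin (Cfp), the protease C1r (C1ra), the C3a receptor (C3ar1), urokinase (Plau), the urokinase receptor (Plaur), protein S (Pros1) and the fibrinogen beta chain (Fgb). Of the 42 measured members 28 passed the blank limit, or 66.7% (exact Clopper-Pearson 95% interval 50.5 to 80.4), against 72.8% of all genes. The 7 over the receptor limit were 16.7% (6.97 to 31.4), against 42.7% of all genes. The median signal of the members was 26.8, and that of all named genes was 40.1. The intervals treat genes as draws and cover no difference between arrays.

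**Figure D1:**
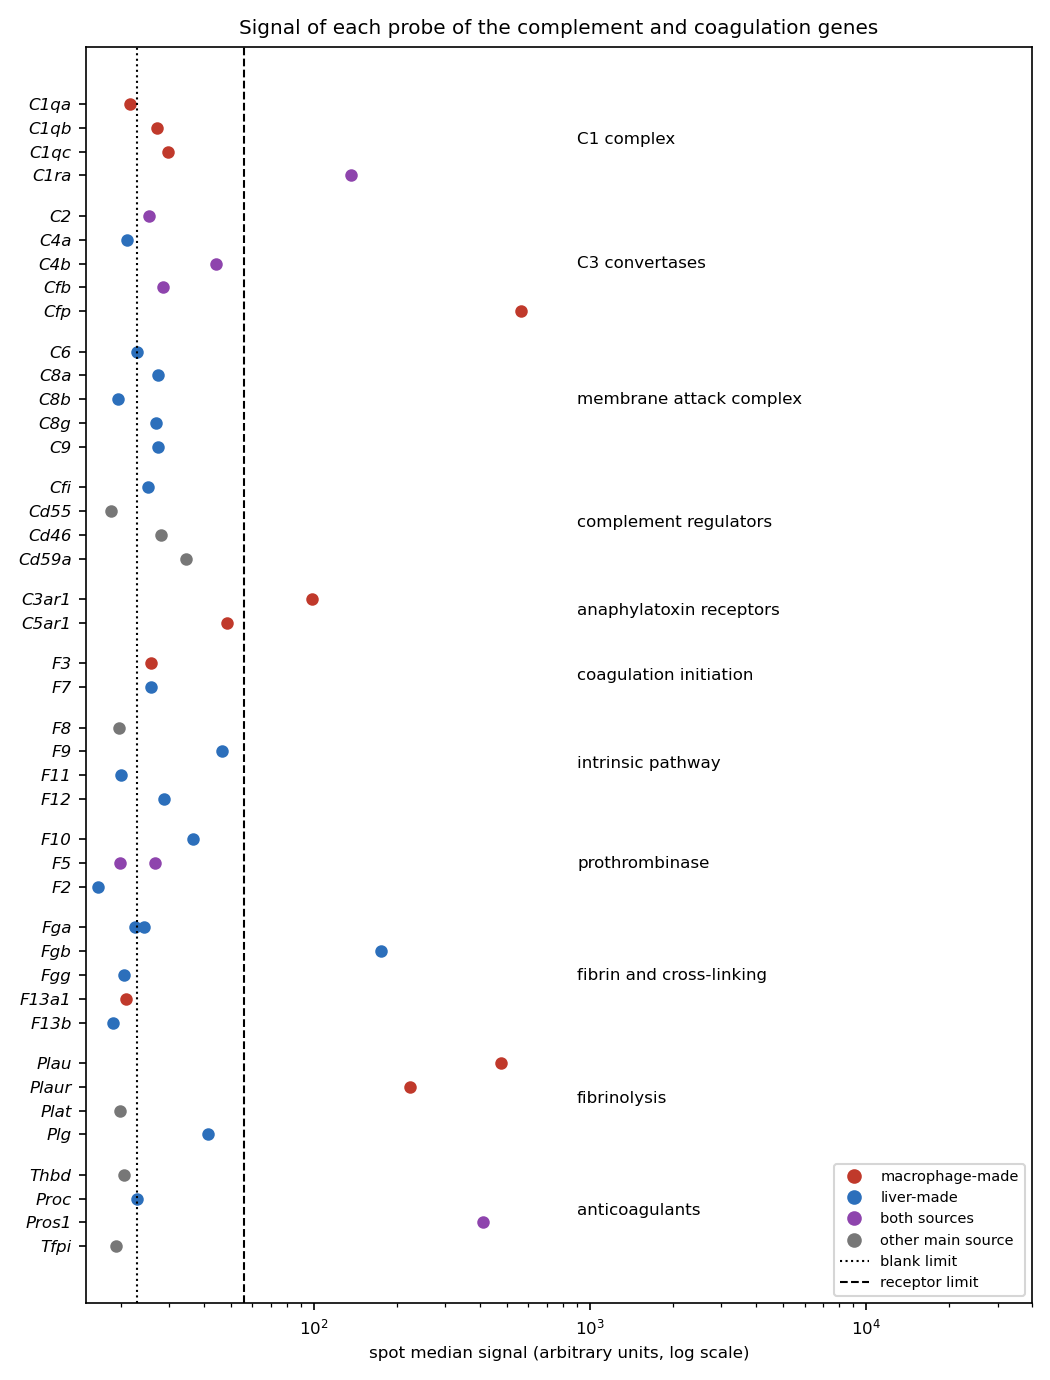
Spot median signal (log scale, arbitrary units) of every probe of the 42 measured members, grouped by role and coloured by main source; 1 point is 1 probe. Cfp, C1ra, C3ar1, Fgb, Plau, Plaur and Pros1 lie right of the receptor limit of 55.8 (dashed), and the other members lie left of it, on both sides of the blank limit of 22.98 (dotted).

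Among the macrophage-made members, 8 of 10 passed the blank limit, against 12 of 19 liver-made members. In shares this was 80% (44.4 to 97.5) of the macrophage-made and 63.2% (38.4 to 83.7) of the liver-made genes, where all genes stood at 72.8%. At the receptor limit 4 of 10 macrophage-made genes passed, or 40% (12.2 to 73.8), against 1 of 19 liver-made genes, or 5.26% (0.133 to 26.0). With local background subtracted, and likewise with normexp background correction, the receptor limit for such values was passed by 4 of 10 macrophage-made and 2 of 19 liver-made genes, or 10.5%, F9 being the second. The share of all genes was not calculated for such values. In the unsubtracted signals the macrophage-made share was close to the 42.7% of all genes, while the liver-made share had an interval wholly below it. The intervals of both classes overlap, and with 1 array no test of their difference was made. The median signal was 39.2 in macrophage-made and 25.0 in liver-made members, against 40.1 in all genes.

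The genes with both sources were 6 measured members, C1ra, C2, C4b, Cfb, F5 and Pros1. All 6 were over the blank limit, and C1ra and Pros1 were the 2 over the receptor limit as well. In shares this was 100% and 33.3%, against 72.8% and 42.7% of all genes. The members known mainly from other cells were Cd46, Cd55, Cd59a, F8, Plat, Tfpi and Thbd. Of these 7, the blank limit was passed by Cd46 and Cd59a and the receptor limit by 0 (exact interval 0 to 41.0%). The shares of 28.6% and 0% stand beside 72.8% and 42.7% of all genes.

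**Figure D2:**
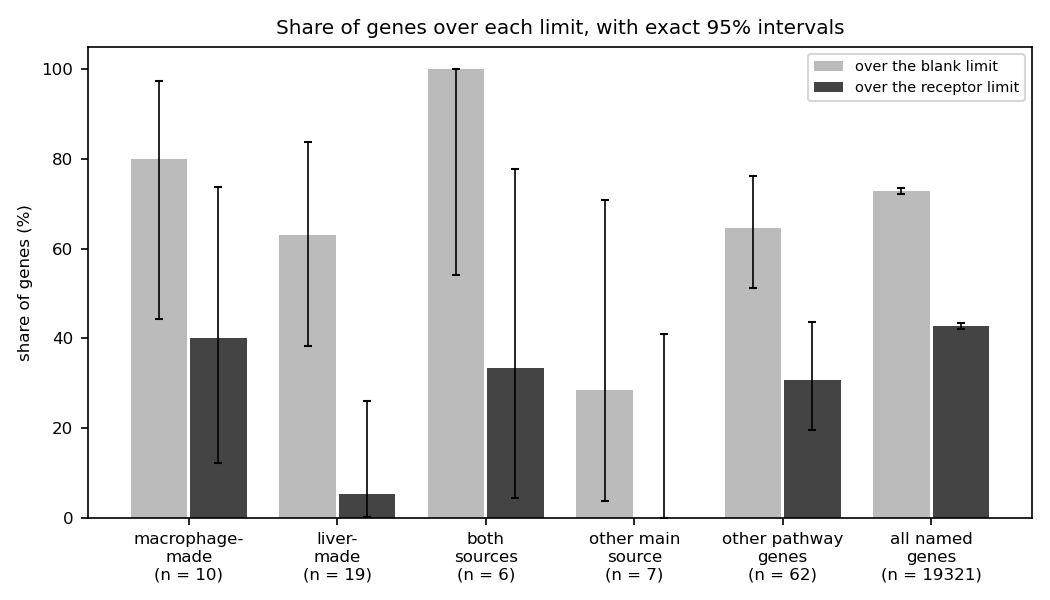
Share of measured genes (%) over the blank limit (light bars) and over the receptor limit (dark bars) for each source class of the members, for other genes of the same pathways and for all named genes; error bars are exact 95% intervals over genes. The dark bars stand at 40% for macrophage-made and 5.26% for liver-made members, against 42.7% for all genes.

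The C1 complex starts the classical pathway when C1q binds antibody or altered surfaces, and C1r then activates C1s. C1ra (probe M400011429), which encodes C1r, read 136, or 2.44 times the receptor limit. The 3 chains of C1q, a classic product of macrophages, stayed under that limit. C1qb read 27.1 and C1qc read 29.7, both over the blank limit in all 11 settings run, while C1qa read 21.7 and passed in 0 of them. All 3 chains are needed for C1q.

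The C3 convertases cleave C3, and properdin holds the alternative pathway's convertase together. Cfp (probe M400000030), which encodes properdin, read 564.8, or 24.6 times the blank limit and 10.1 times the receptor limit. Its local background was 22.8, near the median of 23.4 over all gene probes. The protease components lay between both limits, with C2, of the classical convertase, at 25.4 and Cfb, of the alternative convertase, at 28.4. C4b, the mouse C4, read 44.1, and C4a, the sex-limited protein gene, read 21.1 and did not pass the blank limit. C4a and C4b are near-identical copies, so which of them each probe reads is uncertain.

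The membrane attack complex is the pore that late components build on a target membrane, and all of its members are liver-made. C6 read 22.99, 1.0004 times the blank limit, and passed in 4 of 11 settings. The C8 chains C8a and C8g read 27.4 and 26.8, whereas C8b read 19.6 and passed in none. C9, the pore-forming subunit, read 27.2. In all, 4 of these 5 genes, or 80%, were over the blank limit, against 72.8% of all genes. The receptor limit was passed by 0 of 5 (exact interval 0 to 52.2%), against 42.7% of all genes.

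Complement regulators keep C3 convertases and pores off the body's own cells. Cd59a, which blocks assembly of the pore, read 34.5, over the blank limit in all 11 settings. Cd55, which speeds convertase decay, read 18.5 and did not pass. Cd46, a cofactor for cleavage of C3b that in the mouse is known mainly from testis, read 28.0 with a local background of 26.4, and its probe is annotated to a non-coding transcript record. Cfi, the protease factor I, read 25.0 with a local background of 23.5. Outside the member list, Cr1l, which encodes Crry, the broadly expressed membrane regulator of rodents, read 249 over a local background of 22.4.

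The anaphylatoxin receptors sense the small fragments C3a and C5a. C3ar1 (probe M300012722) read 98.5, or 1.77 times the receptor limit, and C5ar1 read 48.7, between both limits at 2.12 times the blank limit. Both passed the blank limit in all 11 settings. Among receptors for complement-coated targets, the integrin chains Itgam and Itgb2, which pair as complement receptor 3, read 109 and 512. Itgax, which pairs with Itgb2 as complement receptor 4, read 66.5, and after subtraction of its local background, at 25.6, it lay under the limit of 27.0 for such values. The receptors Cr2, known from B cells, and Vsig4, known from resident macrophages, did not pass the blank limit, at 19.3 and 21.4.

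The initiating and intrinsic clotting factors lay under the receptor limit. Tissue factor (F3), the cell-surface trigger that monocytes make on activation, read 25.7, and its partner F7 read 25.8; both lay between the limits. Of the intrinsic pathway proteases, F9 read 46.4, or 2.02 times the blank limit, and F12 read 28.6, while F11 read 20.1. With local background subtracted F9 read 28.4, over the receptor limit of 27.0 for such values. F8, the cofactor of factor IX, read 19.8. Neither F8 nor F11 passed the blank limit in any of the 11 settings.

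In the prothrombinase step, F10 read 36.6, between both limits, and passed the blank limit in every setting. F2, which encodes prothrombin, read 16.5, below its local background of 17.1. The cofactor gene F5 had probes on different sides of the blank limit, at 19.9 and 26.7. For the last step, the cross-linking subunit F13a1, known from monocytes and macrophages, read 20.9, and its carrier F13b, a liver product, read 18.7. Both lay below their local backgrounds of 21.6 and 21.2.

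Fibrinogen is built from alpha, beta and gamma chains, and the liver makes all of them together from neighbouring genes. In the parental cells Fgb (probe M300008976) read 176, or 3.15 times the receptor limit, and was the 1 liver-made member over it. Fga read 22.5 and 24.2 on its probes, of which the higher passed the blank limit and none the receptor limit, and Fgg read 20.5 and passed in none of the 11 settings. The 3 fibrinogen genes lie side by side on chromosome 3. On the Fgb side the next protein-coding gene is Plrg1, a splicing factor gene, which read 1076, and on the Fgg side it is Lrat, an enzyme of vitamin A storage, which read 19.8. These neighbours were looked up after the signals had been seen. The Fgb spot had a local background of 60.5, and the highest of the spots adjacent to it read 10648. With local background subtracted Fgb read 115, over the receptor limit of 27.0 for such values. The part of the adjacent spot and of binding by other transcripts in this signal was not tested.

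**Figure D3:**
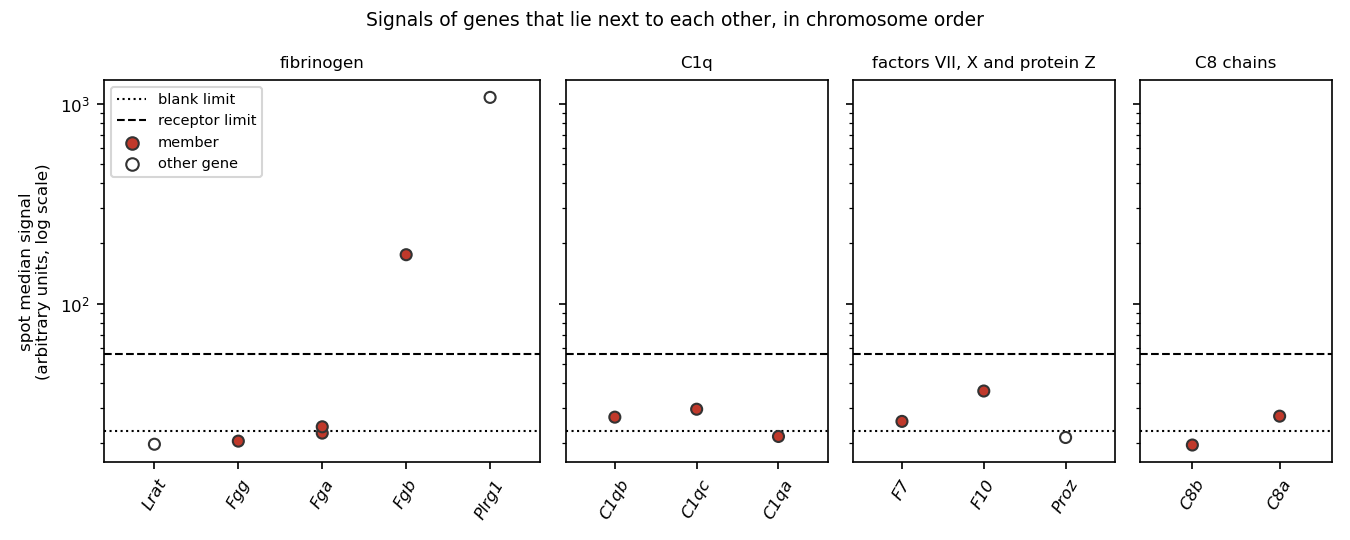
Spot median signal (log scale, arbitrary units) of genes that adjoin each other, in chromosome order, for 4 gene clusters; filled points are member probes and open points other genes. In the fibrinogen cluster Fgb, at 176, lies over the receptor limit (dashed) and Fga and Fgg do not, and in the C1q, factor VII, X and protein Z, and C8 clusters every probe lies under it.

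The other clusters held no member over the receptor limit. The C1q genes adjoin each other on chromosome 4, with C1qa the chain that did not pass the blank limit. On the same chromosome C8a passed it at 27.4 and its neighbour C8b did not. F7, F10 and Proz, the gene of the vitamin K-dependent protein Z, adjoin each other on chromosome 8, and F7 and F10 passed the blank limit whereas Proz read 21.4 and did not.

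Upstream sequences are shown for the 3 fibrinogen genes, as neighbours on different sides of the limits, and for Cfp, Plaur and C3ar1, the macrophage-made members over both limits that had an entry in the RefSeq promoter table (GRCm38.p6). Each is the 250 bases before the annotated start, 5′ to 3′ on the gene's strand. Capitals mark matches on either strand to GTTAAT, a half-site of the liver factor HNF1, to GAGGAA, a purine-rich core of the kind ETS factors such as PU.1 bind, and to TTGCNNAA, a pattern of C/EBP half-sites. No 2 of these matches overlap in the printed windows.
Cfp: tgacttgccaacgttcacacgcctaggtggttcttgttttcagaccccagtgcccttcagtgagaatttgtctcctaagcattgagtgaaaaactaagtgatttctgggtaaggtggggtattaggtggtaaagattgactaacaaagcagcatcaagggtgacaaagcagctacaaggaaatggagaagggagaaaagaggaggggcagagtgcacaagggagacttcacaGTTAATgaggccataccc
Plaur: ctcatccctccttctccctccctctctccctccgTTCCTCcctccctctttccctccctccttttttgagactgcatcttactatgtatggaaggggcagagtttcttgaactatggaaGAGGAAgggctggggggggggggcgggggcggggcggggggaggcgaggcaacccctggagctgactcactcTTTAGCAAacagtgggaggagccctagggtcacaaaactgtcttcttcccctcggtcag
C3ar1: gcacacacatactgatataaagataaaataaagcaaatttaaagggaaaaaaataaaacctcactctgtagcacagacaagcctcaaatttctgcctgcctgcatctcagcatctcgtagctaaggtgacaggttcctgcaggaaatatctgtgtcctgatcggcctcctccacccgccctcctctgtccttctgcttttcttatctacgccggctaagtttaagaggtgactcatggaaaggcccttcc
Fgb: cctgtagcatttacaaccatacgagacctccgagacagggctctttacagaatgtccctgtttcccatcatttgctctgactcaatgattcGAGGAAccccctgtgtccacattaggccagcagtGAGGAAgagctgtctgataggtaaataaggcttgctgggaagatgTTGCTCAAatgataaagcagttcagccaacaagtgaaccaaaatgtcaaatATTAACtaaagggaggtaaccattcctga
Fga: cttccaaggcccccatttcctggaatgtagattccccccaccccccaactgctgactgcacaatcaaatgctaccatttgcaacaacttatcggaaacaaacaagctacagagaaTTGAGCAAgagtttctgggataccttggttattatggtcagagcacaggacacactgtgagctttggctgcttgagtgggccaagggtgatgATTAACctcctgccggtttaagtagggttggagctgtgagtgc
Fgg: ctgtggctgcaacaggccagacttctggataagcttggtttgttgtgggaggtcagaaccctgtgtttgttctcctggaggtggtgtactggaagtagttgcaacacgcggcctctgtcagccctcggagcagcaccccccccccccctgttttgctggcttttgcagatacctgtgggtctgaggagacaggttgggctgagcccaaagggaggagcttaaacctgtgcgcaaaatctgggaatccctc

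The windows are chrX:20931556-20931805 on the minus strand for Cfp, chr7:24462233-24462482 on the plus strand for Plaur and chr6:122856158-122856407 on the minus strand for C3ar1. For the fibrinogen genes they are chr3:83049864-83050113 on the minus strand for Fgb, chr3:83025903-83026152 on the plus strand for Fga and chr3:83007474-83007723 on the plus strand for Fgg. Fgb and Fga each held 1 match to GTTAAT, as its reverse complement, and 1 match to TTGCNNAA, whereas Fgg held none of the 3 patterns. The GTTAAT match of Fgb lies 24 to 29 bases before the start and that of Fga 38 to 43 bases before it. GAGGAA matched 2 times in Fgb and 2 times in Plaur, and in none of Fga, Fgg, Cfp and C3ar1. Plaur also held 1 match to TTGCNNAA, Cfp held 1 match to GTTAAT, and C3ar1 held none of the patterns. The printed windows were chosen with their genes' signals known, so nothing is read from which of them hold a match.

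Of the 44 members, 33 had at least 1 window in the promoter table, 36 windows in all. GTTAAT occurred in 1 of 9 windows of macrophage-made and 5 of 16 windows of liver-made members, against 6.43% of 32851 windows of all genes. GAGGAA occurred in 4 of 9 macrophage-made and 2 of 16 liver-made windows, against 23.3% of all windows. TTGCNNAA occurred in 1 of 9 and 5 of 16 windows of these classes, against 9.56% of all windows. A match is only a match of letters, and binding was not measured.

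Of the 4 fibrinolysis members, 2 passed the receptor limit, or 50% (6.76 to 93.2), against 42.7% of all genes. Plau (probe M200001630), the urokinase that turns plasminogen into plasmin, read 478, or 8.57 times the receptor limit. Plaur (probe M300017143), which holds urokinase at the cell surface, read 224, or 4.01 times that limit. Enzyme and receptor were thus both over both limits. The other activator, Plat, known from endothelium, read 19.9 and did not pass, and the liver-made substrate gene Plg read 41.4, between the limits.

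The Plau spot had a local background of 249 and an adjacent spot at 9300. After subtraction of local background Plau read 229, against a receptor limit of 27.0 for such values. C1ra had a local background of 77.9 and an adjacent spot at 26416, and read 58.1 after subtraction. The part of the adjacent spots in these signals was not tested. For Plaur and Pros1 the highest adjacent spots read 179.9 and 267, and for C3ar1 380. For Cfp, with its local background of 22.8, the highest adjacent spot read 3759, and its part in the signal was not tested.

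**Figure D4:**
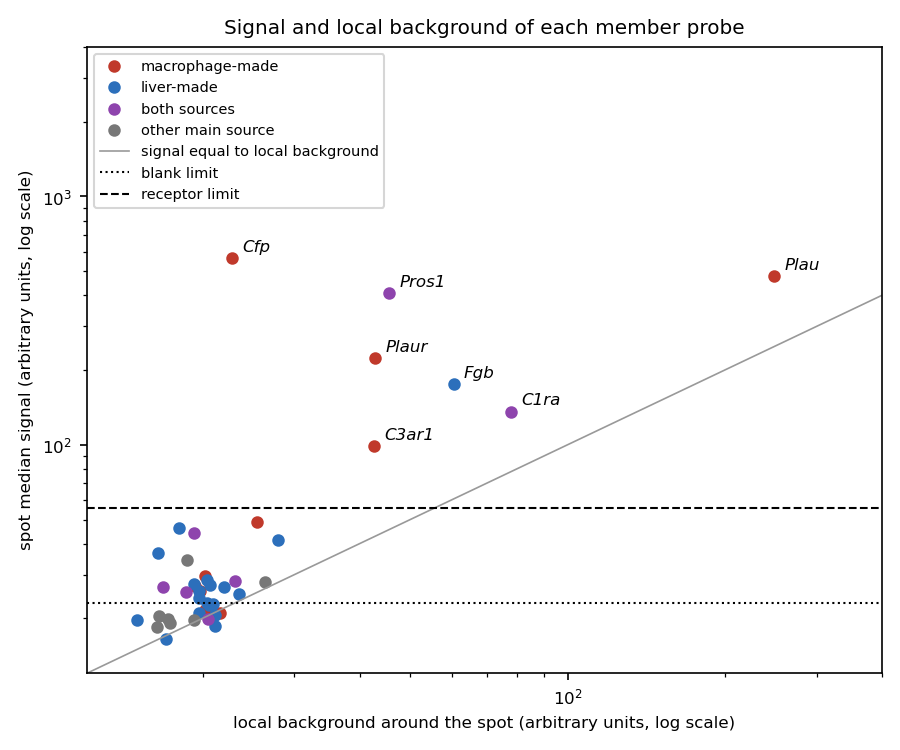
Spot median signal against local background (both log scales, arbitrary units) of the 44 member probes, coloured by main source; the grey line marks equality. The 7 named members lie over the receptor limit and over the grey line. Plau is at a local background of 249 and Cfp at 22.8. On or below the line lie 6 of the 44 probes, beside 6.66% of all gene probes.

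Of the 4 anticoagulant members, all but protein S were under the blank limit. The 1 over it, or 25%, was over the receptor limit too, against 72.8% and 42.7% of all genes. Pros1 (probe M200004946), the cofactor of activated protein C and also a ligand of the receptors that macrophages use to engulf dying cells, read 409, or 7.34 times the receptor limit. Thbd, which encodes thrombomodulin, the receptor on which thrombin activates protein C, read 20.5. Proc, which encodes protein C, read 22.91 against the blank limit of 22.98, and passed in 3 of 11 settings. Tfpi, the inhibitor of tissue factor, read 19.2.

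Further genes modify clotting factors or carry them through the cell. Prothrombin, factors VII, IX and X, protein C and protein S need gamma-carboxylation, which the carboxylase Ggcx carries out with vitamin K that Vkorc1 recycles. Ggcx read 65.8, Vkorc1 read 508 and its paralog Vkorc1l1 read 85.2, all over the receptor limit. The local backgrounds of Ggcx and Vkorc1l1 were 43.6 and 63.4, and after subtraction both, at 22.2 and 21.8, lay under the limit of 27.0 for such values. Of the 6 carboxylated member proteins named above, Pros1 was the 1 whose gene passed the receptor limit. With local background subtracted F9 passed as well, at 28.4 against 27.0. Lman1 and Mcfd2, which form the cargo receptor that carries factors V and VIII out of the endoplasmic reticulum, read 1077 and 230. The local background of the Lman1 spot was 871. P4hb, a disulfide isomerase, read 3171. These are genes of general secretion as well. In this list 9 of 13 measured genes were over the blank limit and 6 over the receptor limit, or 46.2% against 42.7% of all genes, while Habp2, Kng1, Kng2 and Proz, liver products, read from 17.6 to 21.4 and did not pass.

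Over all 62 other genes of the pathways, 40 passed the blank limit, or 64.5% (51.3 to 76.3), and 19 the receptor limit, or 30.6% (19.6 to 43.7), against 72.8% and 42.7% of all genes. Their median signal was 27.3. In the list of complement initiation 8 of 11 and 1 of 11 passed, that 1 being Masp1, a protease of the lectin pathway, at 112 with a local background of 54.3. Colec10, a lectin that starts that pathway, Fcnb, a ficolin, and Hc, the gene of C5, read from 18.5 to 21.0 and did not pass.

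The list of complement regulation had 6 of 11 over the blank limit and 2 over the receptor limit. In shares this was 54.5% and 18.2%, against 72.8% and 42.7% of all genes. The second over the receptor limit, beside Cr1l, was C1qbp, a C1q-binding protein that resides mainly in mitochondria, at 6305. C4bp, Cd59b, Clu and Serping1, the C1 inhibitor, read from 21.9 to 22.8 and did not pass. Of 9 complement receptors 7 and 5 passed, or 77.8% and 55.6%, beside the same shares of all genes. Beside the integrins the 5 held the endocytic receptor Lrp1 at 252 and Calr, calreticulin, at 544.

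On the clotting side, 3 of 8 inhibitors were over the blank limit and 2 over the receptor limit. In shares this was 37.5% and 25%, against 72.8% and 42.7% of all genes. The 2 over the receptor limit were Anxa5, an annexin that covers phosphatidylserine, at 4815, and Procr, the endothelial protein C receptor, at 70.0. A2m, Serpina10, Serpina5 and Serpind1 read from 18.4 to 21.2. Of the 3 measured thrombin receptor genes, 1, or 33.3%, was over the blank limit and 0 over the receptor limit (exact interval 0 to 70.8%). F2r read 20.3 and F2rl2 read 20.9. F2rl3 read 22.99, just over the blank limit of 22.98.

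In the wider fibrinolysis list 7 of 8 genes were over the blank limit and 4 over the receptor limit. In shares this was 87.5% and 50%, against 72.8% and 42.7% of all genes. Anxa2 and S100a10, which form a complex that binds plasminogen and its activator, read 2995 and 2920. Plgrkt, a plasminogen receptor, read 752, and Lrp1, which also clears urokinase bound to inhibitors, is in this list too. Serpinb2, an inhibitor of urokinase, read 19.9 and did not pass.

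The label of a macrophage line was checked on marker genes. Of 8 macrophage markers all were over the blank limit and 7, or 87.5%, over the receptor limit. Spi1 read 858, Csf1r 642 and Adgre1 205. Mertk, the marker under the receptor limit, read 23.3 with a local background of 22.0, or 1.31 after subtraction. Of 8 hepatocyte markers, 5, or 62.5%, were over the blank limit and 0 over the receptor limit (exact interval 0 to 36.9%). Of all genes, 72.8% and 42.7% passed these limits. Alb read 23.9, below its local background of 26.3, and Ahsg read 35.3 with a local background of 32.8. Ttr read 19.4, and the probes of Apoa1 read 17.8 and 39.0. With local background subtracted, 3 of 8 hepatocyte and 7 of 8 macrophage markers passed the blank limit for such values. The share of all genes over that limit was not calculated. The highest of the hepatocyte list was thus 39.0, below the receptor limit that Fgb passed.

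Over endothelial, platelet, adipocyte and hepatocyte markers together, 12 of 23 passed the blank limit, or 52.2% (30.6 to 73.2), and 2 the receptor limit, or 8.70% (1.07 to 28.0). Among all genes the shares were 72.8% and 42.7%. The 2 markers over the receptor limit were Itgb3, an integrin chain, at 98.8 and Cidec, a lipid droplet protein, at 62.4. Pecam1, Cdh5 and Tek of endothelium read from 19.2 to 20.1, and Kdr read 39.6. Adipoq and Lep of adipocytes read 18.7 and 18.2, Plin1 read 32.0, and Itga2b, Pf4 and Gp9 of platelets read 18.8, 28.6 and 22.0. These values stand beside the low readings of the members known mainly from endothelium, Thbd, Tfpi, F8 and Plat.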

How the data were processed

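Total RNA of 1 sample was amplified, coupled to Cy5 and hybridised to a Toray one-colour array, per the labels' protocols. Per the file headers, the scanner file gives the median intensity of every spot and of its surroundings, unsubtracted; later steps were not given in the sources used here. A second deposited table has intensity values that the authors processed. By its values it is the spot median minus the mean of the blanks, times 0.486, with 6784 empty cells at signals of 22.97 or lower; its median is 25, and it has no direction.

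The blank limit is the mean plus 2 SD of 2464 blanks, kept after 5% were left out at each end. Of the spots, 0 carried a flag. Symbols came from the platform annotation, updated by gene identifier to RefSeq (GRCm38.p6, names and gene order only). All 44 member probes carry an accession that RefSeq gives to the same gene.

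The 11 settings of the blank limit are the one given, 1 or 3 SD, the blanks' 99th percentile, untrimmed blanks, the limit of each probe's block, negative controls, spots named No probe, any value in the authors' table, local background subtracted, and normexp (limma 3.58.1, offset 50) with limits treated likewise. Calls were tested on simulated data. Python 3.11.15 and scipy 1.17.1 were used.

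The members and lists were chosen with earlier results of these data known. Named genes are all members; other pathway genes over the receptor limit, up to 10 per list, and up to 4 per list not over the blank limit, both in alphabetical order; and the first 4 of each marker list. Itgb3, Cidec, Mertk, F2rl3, Lrat and Plrg1 were named after their values were seen.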

Additional observations from a re-analysis of the deposited data

How the results depend on the processing

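No paired analysis was possible because there is 1 array, and for the same reason no replicate could be left out. The receptor limit in place of the blank limit lowered the share of members counted to 16.7%, of macrophage-made members to 40%, of liver-made members to 5.26%, of other pathway genes to 30.6%, of hepatocyte markers to 0 of 8 (0%) and of markers of the 4 other cell types to 8.70%; a higher limit counts fewer genes by its construction. With the 99th percentile of the receptor probes, 146, as the higher limit, those markers stood at 0%. The remaining 118 of 125 shares lay inside the interval of the share as reported. Those intervals are over genes and are wide, so they do not measure the effect of processing. With local background subtracted, the share over the blank limit fell to 52.4% of members, 42.1% of liver-made members and 37.5% of hepatocyte markers. For macrophage-made members it stayed at 80%. The share of all genes was not calculated in this setting. The macrophage-made share was above the liver-made share in all 13 settings counted for the blank limit, by 11.6 to 37.9 percentage points. The reported setting and the receptor limit are among these 13. In all 6 settings of the receptor limit the macrophage-made share was above by 24.7 to 34.7 points. All settings reuse the same spots, and the authors' table rescales the same signal, so they are not separate tests. Counting the both-source genes as liver-made gave 80% of macrophage-made against 72% of liver-made members over the blank limit and 40% against 12% over the receptor limit. Counting them as macrophage-made gave 87.5% against 63.2% and 37.5% against 5.26%, and leaving out C4a and C4b gave liver-made shares of 66.7% and 5.56%. Among the 42 measured members, 32 kept their side of the blank limit in the 10 other settings of that limit; C2, Cfb, C6, C8g, Cfi, Cd46, F3, F7, Fga and Proc did not, and the cause was not tested. At the receptor limit, local background subtraction and normexp added F9, which moved the liver-made share to 10.5%, and the 99th percentile dropped C1ra and C3ar1.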
